A study of Mus musculus with 63 samples.

Results

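The Arp2/3 complex subunits are followed here as 10 genes, chosen by symbol and not by their values: Actr2, Actr3, Actr3b, Arpc1a, Arpc1b, Arpc2, Arpc3, Arpc4, Arpc5 and Arpc5l. All 10 were found among the 55291 gene symbols of the count files, and each was counted in all 63 RNA-seq libraries. The Arp2/3 complex binds the side of an existing actin filament and starts a new filament at an angle to it, which builds branched actin networks. Its actin-related proteins, Arp2 and Arp3, form the base of the new branch, and the ARPC subunits hold them together and to the mother filament. The complex is switched on by nucleation-promoting factors of the WASP, WAVE and WASH families. In the brain, branched actin fills dendritic spine heads and drives the motility and phagocytosis of microglia.

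The libraries came from mouse entorhino-hippocampal tissue cultures, slices of hippocampus with attached entorhinal cortex, prepared at postnatal day 3 to 5 from mice of either sex and kept for at least 18 days in vitro. The strains were C57BL/6J (Synpo+/+) and B6.129-Synpotm1Mndl/Dllr (Synpo-/-), a line that lacks the spine apparatus protein synaptopodin and had been back-crossed to C57BL/6J. In the entorhinal cortex lesion (ECL), a scalpel cut along the rhinal to the hippocampal fissure severed the perforant path, and lesioned cultures were collected 3 days later. The regional experiment held 39 libraries, each made from the dentate gyrus (DG) or the CA3 area of 1 culture, so that 1 value stands for all cell types of that piece of tissue. Synpo+/+ CA3 had 2 control and 3 ECL libraries, Synpo+/+ DG 4 and 7, Synpo-/- CA3 6 and 6, and Synpo-/- DG 7 and 4. The other 24 libraries came from a synaptopodin co-immunoprecipitation (coIP). Beads coated with a rabbit antibody to synaptopodin were incubated with a lysate of 6 pooled cultures. RNA held by the beads can include RNA bound without synaptopodin, for which the paper corrected with lysates of Synpo-/- cultures. Cycloheximide, which stalls ribosomes on their mRNAs, was in the lysis solution, and an aliquot of the precleared lysate was sequenced as input. Control Synpo+/+ cultures gave 5 inputs and 5 coIPs, lesioned Synpo+/+ cultures 5 and 5, and Synpo-/- cultures, whose labels give no lesion, 2 and 2. Nothing in the labels says whether regional libraries of a group came from separate animals, so p-values measure the spread between these libraries.

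Total counts were 14055930 to 46043990 per regional library and 11601154 to 53682143 per coIP or input library. The coIP and input libraries labelled Synpo-/- had 42886994 to 53682143 counts, and those of Synpo+/+ cultures 11601154 to 29014397. The lowest count of any subunit in any library was 196, for Arpc1b in a Synpo+/+ CA3 control. Regional libraries labelled Synpo-/- did not have less Synpo mRNA. It lay between 30.5 and 69.3 CPM (read counts relative to TMM-scaled library size) in them and between 19.1 and 38.4 CPM in Synpo+/+ regional libraries. In DG controls Synpo was called higher under the Synpo-/- label, without overlap (log2 1.17, SE 0.13, edgeR adjusted p = 0.000517). In CA3 controls, and after ECL in either region, the labels did not differ by this test. After ECL Synpo mRNA fell in DG labelled Synpo-/- (log2 -0.48, edgeR adjusted p = 0.0193). In inputs labelled Synpo-/- it was at 29.9 and 26.4 CPM against 20.3 to 32.2 CPM in Synpo+/+ inputs, and in coIPs at 30.7 and 25.7 CPM against 27.0 to 42.2 CPM. The counts run over every annotated Synpo exon, so they do not show whether the deleted stretch was missing, and "labelled Synpo-/-" is used below. One of the 7 libraries labelled Synpo+/+ DG ECL, replicate 5, went against its label. Its Prox1 level, the granule cell factor of the dentate gyrus, was 15.5 CPM, against 120 to 217 CPM in the other DG libraries and 12.7 to 44.0 CPM in CA3. Its summed CA3 pyramidal cell markers reached 694.8 CPM, above the 216 to 271 CPM of the other 6 libraries of its group. Subunit results of the lesion and region comparisons that include this library are given with and without it, and so are the counts of pathway and marker genes called after ECL.

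The genes lie on 5 autosomes of GRCm38: Arpc2 (chr1:74236084-74268209), Actr3 (chr1:125392905-125435727) and Arpc5 (chr1:152766542-152775597) on chromosome 1, Arpc5l (chr2:39005348-39015877) on chromosome 2, Actr3b (chr5:25759997-25850688) and Arpc3 (chr5:122391878-122414184) on chromosome 5, Arpc4 (chr6:113378115-113390448) on chromosome 6 and Actr2 (chr11:20062304-20112913) on chromosome 11. The alternative p40 subunit genes Arpc1a (chr5:145083830-145108761) and Arpc1b (chr5:145114215-145130705) are neighbours on the plus strand of chromosome 5. Reads were counted without regard to strand over exons that some subunits share with other genes. Exons of Pdap1, on the opposite strand, cover 18.2% of the Arpc1b exon bases (931 bases), and exons of Ttll3, on the same strand, cover 12.2% of those of Arpc4 (283 bases). For Arpc1a (Kpna7) and Arpc5l (Rpl35, Wdr38) the shared part was 1.95% and 1.38%. A processed copy of Actr3, Actr3-ps, lies on chromosome X. Counts of these 5 genes may therefore be split with, or lose reads to, their neighbours or copy.

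Promoter windows, from 250 bases before to 50 after the transcription start, were taken from RefSeq (GRCm38.p6) and matched by symbol for 8 of the 10 genes, all but Actr3b and Arpc5l. Of these, 4 are shown, those of the neighbouring paralogs Arpc1a and Arpc1b and of Arpc4 and Arpc5, because Arpc1b, Arpc4 and Arpc5 rose in Synpo+/+ DG after ECL. Capitals mark 3 motifs on either strand: the ETS core CCGGAAG, the PU.1 core GAGGAAG, bound by the myeloid factor PU.1, and the GC box GGGCGG, bound by Sp1.
Arpc1a, chr5:145083619-145083918, plus strand: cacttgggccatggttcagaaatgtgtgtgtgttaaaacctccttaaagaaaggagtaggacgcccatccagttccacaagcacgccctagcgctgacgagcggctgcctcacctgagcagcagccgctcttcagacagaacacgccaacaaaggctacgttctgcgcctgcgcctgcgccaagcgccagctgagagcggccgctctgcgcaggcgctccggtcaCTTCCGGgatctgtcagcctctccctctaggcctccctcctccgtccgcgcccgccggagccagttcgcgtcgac
Arpc1b, chr5:145114006-145114305, plus strand: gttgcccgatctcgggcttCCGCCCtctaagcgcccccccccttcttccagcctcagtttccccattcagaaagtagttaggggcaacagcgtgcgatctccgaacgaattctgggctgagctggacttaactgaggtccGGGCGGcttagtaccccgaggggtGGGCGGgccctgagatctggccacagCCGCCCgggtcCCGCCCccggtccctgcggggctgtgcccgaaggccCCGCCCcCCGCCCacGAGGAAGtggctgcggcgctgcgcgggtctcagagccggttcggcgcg
Arpc4, chr6:113377863-113378162, plus strand: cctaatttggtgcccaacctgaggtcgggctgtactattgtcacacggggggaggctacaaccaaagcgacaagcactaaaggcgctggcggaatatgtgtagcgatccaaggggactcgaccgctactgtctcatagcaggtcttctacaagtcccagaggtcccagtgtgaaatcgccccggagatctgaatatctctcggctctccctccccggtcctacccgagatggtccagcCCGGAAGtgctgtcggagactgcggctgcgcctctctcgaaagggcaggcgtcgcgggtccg
Arpc5, chr1:152766292-152766591, plus strand: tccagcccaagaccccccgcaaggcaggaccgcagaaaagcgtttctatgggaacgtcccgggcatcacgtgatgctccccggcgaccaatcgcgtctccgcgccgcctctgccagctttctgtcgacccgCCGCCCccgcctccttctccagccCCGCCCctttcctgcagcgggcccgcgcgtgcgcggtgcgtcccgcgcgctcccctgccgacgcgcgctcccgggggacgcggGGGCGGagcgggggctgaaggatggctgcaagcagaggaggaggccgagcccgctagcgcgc
The Arpc1a window held 1 ETS core and no GC box, and the Arpc1b window held 7 GC boxes, 1 PU.1 core and no ETS core. Arpc4 held 1 ETS core, and Arpc5 held 3 GC boxes. Over the 8 windows, 5 held an ETS core, 6 a GC box, 1 a PU.1 core, 2 a CCAAT box (CCAAT) and 0 a TATA box (TATAAA). Of all 32851 RefSeq windows of this length, 8.86% held the ETS core, 35.7% the GC box, 13.6% the PU.1 core, 37.4% CCAAT and 13.6% TATAAA. The 4 printed windows were 59.7% to 73.7% G or C, against a median of 52.7% over all windows. These are matches of letters and do not show that a factor binds.

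Levels were compared between subunits on the scale of CPM per kb of annotated exon. This divides by the merged length of all exons annotated for a gene, which can exceed the length of the transcripts present. The order of genes therefore depends on the annotation. In Synpo+/+ DG control cultures (n = 4) Actr2, the Arp2 gene, was highest, with 168 ± 33.3 CPM per kb (SD), followed by Arpc2, the p34 scaffold subunit, with 129 ± 21.2, and Arpc5, the p16 subunit, with 116 ± 26.5. The ranges of these 3 overlapped from each to the next. A second tier held Arpc1a, the p40 subunit, with 54.9 ± 4.00 CPM per kb, Actr3, the Arp3 gene, with 46.5 ± 6.93, and Arpc5l, the p16 paralog, with 33.7 ± 9.41, again with overlapping neighbours. Actr3b, the Arp3 paralog known from brain, followed with 20.4 ± 2.35 CPM per kb, then Arpc4 (p20) with 12.3 ± 2.47 and Arpc3 (p21) with 9.71 ± 2.22. Arpc1b was lowest, with 3.97 ± 0.150 CPM per kb, and its range did not touch that of Arpc3. The same 3 genes (Actr2, Arpc2 and Arpc5) were the highest and Arpc1b the lowest in all 8 regional groups.

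Inputs and coIPs were scaled apart from the regional libraries, so only the order of genes is set side by side. In Synpo+/+ control inputs (n = 5) Arpc5 stood alone at the top, with 483 ± 50.8 CPM per kb, above Arpc2 with 146 ± 22.5 and Actr2 with 134 ± 12.5. Arpc1b, with 58.6 ± 11.4 CPM per kb, was no longer last there: Actr3b (34.6 ± 6.01) and Arpc3 were lower. The cultures of this experiment were lysed whole with their entorhinal cortex, and the libraries were prepared separately, so tissue and preparation cannot be told apart in this shift.

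The first question was whether partial denervation changed subunit mRNA. In Synpo+/+ DG, 3 of 10 subunits rose at 3 days after ECL, against 7.86% of the 23720 genes tested that were called higher, and none fell. They were Arpc1b, Arpc4 and Arpc5. All 10 fitted changes were positive, with a median log2 fold change of 0.45, where the median of all genes was 0.00. Without replicate 5, 8 of 10 were positive, with a median of 0.28 against -0.03 over all genes, and 4 were called. The 7.86% belongs to the fit with replicate 5, and no share of all genes is given for the fit without it. With the trend of gene length removed, 8 of 10 were positive, with a median of 0.21 against -0.14 over all genes, and 2 were called, the Arpc5 call being lost (0.51, edgeR adjusted p = 0.0754). In bulk tissue, more cells of a type and more RNA per cell cannot be told apart.

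**Figure D1:**
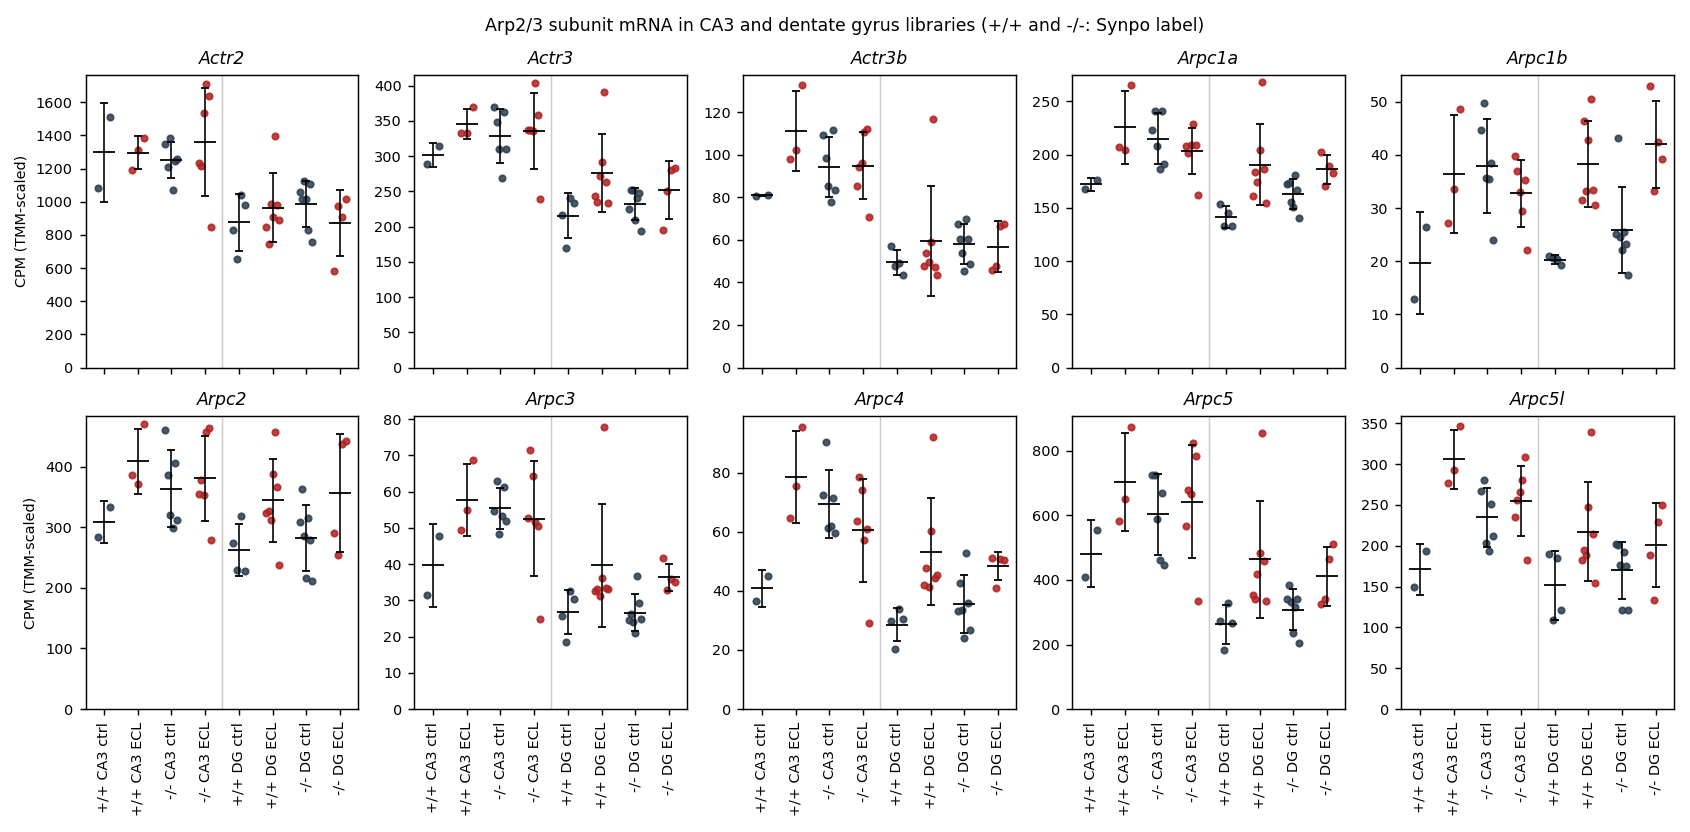
Level of each subunit in each of the 39 regional libraries, in CPM scaled by TMM (linear axis from 0). Points are libraries (dark, control; red, ECL), bars are means ± SD, and +/+ and -/- give the Synpo label; in the +/+ DG ECL column, replicate 5 is the highest point of all 10 genes, such as Arpc3 at 77.9 CPM.

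Arpc1b, the p40 isoform known to be abundant in blood-derived cells, was at 21.0, 20.6, 20.5 and 19.2 CPM in the 4 Synpo+/+ DG controls. In the 7 ECL libraries it ranged from 30.5 to 50.6 CPM, with a median of 33.4. Every lesioned library was above every control. The log2 fold change was 0.89 (SE 0.14), a 1.85-fold rise, with a Benjamini-Hochberg adjusted p of 0.0013 (edgeR, quasi-likelihood). Without replicate 5 it was 0.80 (adjusted p = 0.000467, edgeR).

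Arpc4 was at 29.7, 20.5, 33.9 and 30.3 CPM in the same controls and between 41.4 and 92.0 CPM after ECL, with a median of 45.4. The groups did not overlap, and the log2 fold change was 0.86 (SE 0.20, edgeR adjusted p = 0.0165). Arpc5 was at 273, 183, 329 and 267 CPM in controls and between 336 and 854 CPM after ECL, with a median of 420.0. Its lowest lesioned library stood just above its highest control, with a log2 fold change of 0.78 (SE 0.23, edgeR adjusted p = 0.0400). Replicate 5 was the highest library for both. Without it the log2 fold changes were 0.67 for Arpc4 and 0.56 for Arpc5 (edgeR adjusted p = 0.00332 and 0.0184), and Arpc1a also passed (0.29, edgeR adjusted p = 0.0457).

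The remaining 7 subunits did not pass the test in Synpo+/+ DG. Arpc1a came closest, with a log2 fold change of 0.40 (SE 0.13, edgeR adjusted p = 0.0537), and its groups did not overlap. With Arpc1b, Arpc4 and Arpc5 this made 4 of 10 subunits without overlap. The share of all genes without overlap was not counted. Arpc3, Arpc5l, Arpc2, Actr3, Actr3b and Actr2 had fitted values of 0.53, 0.49, 0.36, 0.33, 0.24 and 0.11. Without replicate 5 the values of Actr3b and Actr2 were -0.02 and -0.01. The Arpc5 call was lost when any 1 of 6 libraries was left out (ECL replicates 3, 4 and 6, control replicates 1, 3 and 4). Without control replicate 2 the calls of Arpc4 and Arpc5 were both lost, and without ECL replicate 7 Arpc1a was called as well.

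In Synpo+/+ CA3, with 2 control and 3 ECL libraries, 2 of 10 subunits rose, against 1.5% of 22340 genes called higher. Arpc5l was at 149 and 194 CPM in controls and at 277, 293 and 347 CPM after ECL. No control reached the lesioned range, and the log2 fold change was 0.73 (SE 0.14, edgeR adjusted p = 0.0409). Arpc4 was at 36.5 and 45.1 CPM against 64.6, 75.4 and 95.4 CPM, also without overlap (log2 fold change 0.84, SE 0.17, edgeR adjusted p = 0.0423). Both calls ended when any 1 library other than control replicate 2 was left out, and without control replicate 2 Arpc1b passed as well. Arpc1b itself, at 12.9 and 26.5 CPM in controls and 27.1, 33.5 and 48.6 CPM after ECL, had a log2 fold change of 0.78 (SE 0.29, edgeR adjusted p = 0.150). Arpc5, Arpc3, Actr3b, Arpc2, Arpc1a, Actr3 and Actr2 did not pass either, with fitted values of 0.44, 0.44, 0.35, 0.30, 0.29, 0.09 and -0.10. Between these small groups 9 of 10 subunits did not overlap, Actr3 among them, so lack of overlap did not set Arpc5l and Arpc4 apart. The share of all genes without overlap was not counted. The median over subunits was 0.40, against -0.01 over all genes. It was 0.225 without ECL replicate 3, 0.275 without control replicate 1 and 0.12 with the trend of gene length removed, which left 0 called.

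In the libraries labelled Synpo-/-, CA3 subunits did not pass the test in either direction (0 of 10, against 0.077% of 20772 genes called in either direction). Their fitted log2 fold changes ran from -0.21 to 0.13 around a median of 0.03, no subunit had an unadjusted p under 0.05, and DESeq2 also called 0. In DG labelled Synpo-/-, 2 of 10 rose, against 5.17% of 23310 genes called higher. Arpc1b ranged from 17.5 to 43.2 CPM over 7 controls, with a median of 24.6, and was at 53.0, 33.3, 42.3 and 39.3 CPM after ECL (log2 fold change 0.65, SE 0.19, edgeR adjusted p = 0.0386). One control, replicate 2 with 43.2 CPM, lay inside the lesioned range. Arpc3 ranged from 20.9 to 36.7 CPM with a median of 25.0 in controls and was at 41.6, 32.8, 36.0 and 35.2 CPM after ECL (log2 fold change 0.41, SE 0.12, edgeR adjusted p = 0.0439). Both calls ended without any 1 of 8 libraries, ECL replicates 1, 3 and 4 and control replicates 1, 3, 4, 6 and 7. That of Arpc3 also ended without control replicate 2, and that of Arpc1b without control replicate 5, where Arpc4 was called instead. With all libraries, Arpc4, Arpc5, Arpc2, Arpc5l, Arpc1a, Actr3, Actr3b and Actr2 did not pass. Their fitted values were 0.40, 0.37, 0.29, 0.19, 0.15, 0.08, -0.07 and -0.23.

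Whether the lesion effect differed between the genotype labels, or between DG and CA3, was tested by interaction terms. No subunit passed in any of the 4 fits by edgeR's quasi-likelihood test, and DESeq2 also called 0 in each. In CA3, the labelled Synpo-/- minus Synpo+/+ difference of lesion effects was lowest for Arpc4 (log2 -1.07, SE 0.33, adjusted p = 0.151) and Arpc1b (-1.02, SE 0.36, adjusted p = 0.181) by edgeR. In this fit 4 subunits had an unadjusted p under 0.05, and 0 of 26821 genes were called in all. In DG the values ran from -0.50 to -0.11 (-0.32 to 0.09 without Synpo+/+ ECL replicate 5), with 0 subunits at an unadjusted p under 0.05 and 0.00381% of genes called. For DG minus CA3, the difference was largest for Arpc1b in cultures labelled Synpo-/- (0.83, SE 0.27, edgeR adjusted p = 0.147), and it passed without DG control replicate 2. That fit called 1.12% of 25435 genes in either direction, with 2 subunits at an unadjusted p under 0.05, and the capping gene Capg (1.25) was among its calls. In Synpo+/+ cultures the DG minus CA3 values ran from -0.29 to 0.30, with 0 subunits at an unadjusted p under 0.05, and without DG ECL replicate 5 from -0.43 to 0.08, with 1 at an unadjusted p under 0.05 and 0 called. Between controls labelled Synpo-/- and Synpo+/+, edgeR called 0 of 10 subunits in CA3, with 5 at an unadjusted p under 0.05 and 2 called higher by DESeq2. Of the 24203 genes tested there, 3959 had an unadjusted p under 0.05 by edgeR, and DESeq2 called 719 in either direction. In DG controls, and after ECL in CA3 and in DG, edgeR and DESeq2 called 0 of 10, with 0 at an unadjusted p under 0.05, and edgeR also called 0 in DG without ECL replicate 5. Over all genes tested, edgeR called 0.00413% in CA3 controls, 0.00891% in CA3 after ECL, 0.0166% in DG controls and 0.0166% in DG after ECL in these genotype comparisons.

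Other genes of the actin branching pathway were taken from fixed lists. In Synpo+/+ DG, 4 of 12 nucleation-promoting factors rose and 0 fell: Wasf2 (log2 fold change 0.63), Was (1.06), Cttn (0.54) and Hcls1 (1.04). Was and Hcls1 are known as genes of blood-derived cells. Of the 8 WAVE complex genes, 7 were tested and Cyfip1 (0.59) and Nckap1l (0.56), the blood cell paralog of Nckap1, rose. Of 10 inhibitors and debranching factors, 4 rose (Gmfg 0.66, Coro1b 0.90, Coro1a 0.69 and Arpin 0.66). Of 7 capping genes, Capg (1.18) and Capzb (0.66) rose and Cd2ap fell by 0.40, and 3 of 16 other nucleators, which build unbranched filaments, rose (Fmnl1 1.07, Daam2 0.44 and Diaph3 0.49). The WASH gene Washc2 (0.41) was the 1 of 5 that passed. In this comparison 7.86% of all genes tested were called higher, and 1022 of 23720 were called lower. Without replicate 5 the numbers called were the same, except that 1 other nucleator was called lower.

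In DG labelled Synpo-/-, Capg (1.10), Nckap1l (0.65), Was (0.62), Coro1b (0.55) and Arpin (0.49) rose too, all called by the same test. There 1 of 12 nucleation-promoting factors, 1 of 7 WAVE genes, 0 of 5 WASH genes, 2 of 10 inhibitors and 1 of 7 capping genes were called higher. The share over all genes tested was 5.17% called higher, and 783 of 23310 were called lower. A count of 1 in lists this short is not read as a result about the list. Among other nucleators 4 of 16 rose and Fmn1 fell by 0.48. In Synpo+/+ CA3 the calls were Coro1a (0.86), Coro1b (0.92) and Twf2 (1.31), and in CA3 labelled Synpo-/- no gene of these lists was called. Over all genes tested, 1.5% were called higher in Synpo+/+ CA3. In CA3 labelled Synpo-/- 0.077% were called in either direction.

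Microglia markers moved with these changes. The summed level of 14 markers, none of them at 0 in any library, was 826 to 1206 CPM in Synpo+/+ DG controls and 1940 to 2480 CPM after ECL, and all 14 were called higher. In DG labelled Synpo-/- it was 997 to 2071 against 2092 to 2626 CPM, with 11 of 14 called higher. In Synpo+/+ CA3 it was 886 to 1557 against 1739 to 2322 CPM with 2 of 14 called, and in CA3 labelled Synpo-/- 1213 to 2609 against 1163 to 2059 CPM with 0 called. The shares of all genes called higher were 7.86% in Synpo+/+ DG, 5.17% in DG labelled Synpo-/- and 1.5% in Synpo+/+ CA3. Astrocyte markers also rose in DG (5 of 8 in Synpo+/+ and 6 of 8 in labelled Synpo-/- cultures), where their sums were 4628 to 5387 against 7189 to 9250 CPM and 4955 to 5850 against 7626 to 9736 CPM. In CA3 their sums were 4891 to 6053 against 6600 to 7860 CPM (Synpo+/+) and 6160 to 7171 against 4851 to 7366 CPM (labelled Synpo-/-). Oligodendrocyte markers in CA3 labelled Synpo-/- summed to 1790 to 2875 CPM in controls and 1198 to 1659 CPM after ECL. In Synpo+/+ CA3 and in DG of both labels their ranges overlapped. Without replicate 5, 14 of 14 microglia and 7 of 8 astrocyte markers were called higher in Synpo+/+ DG. The part of these cell types in the subunit changes was not tested.

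**Figure D2:**
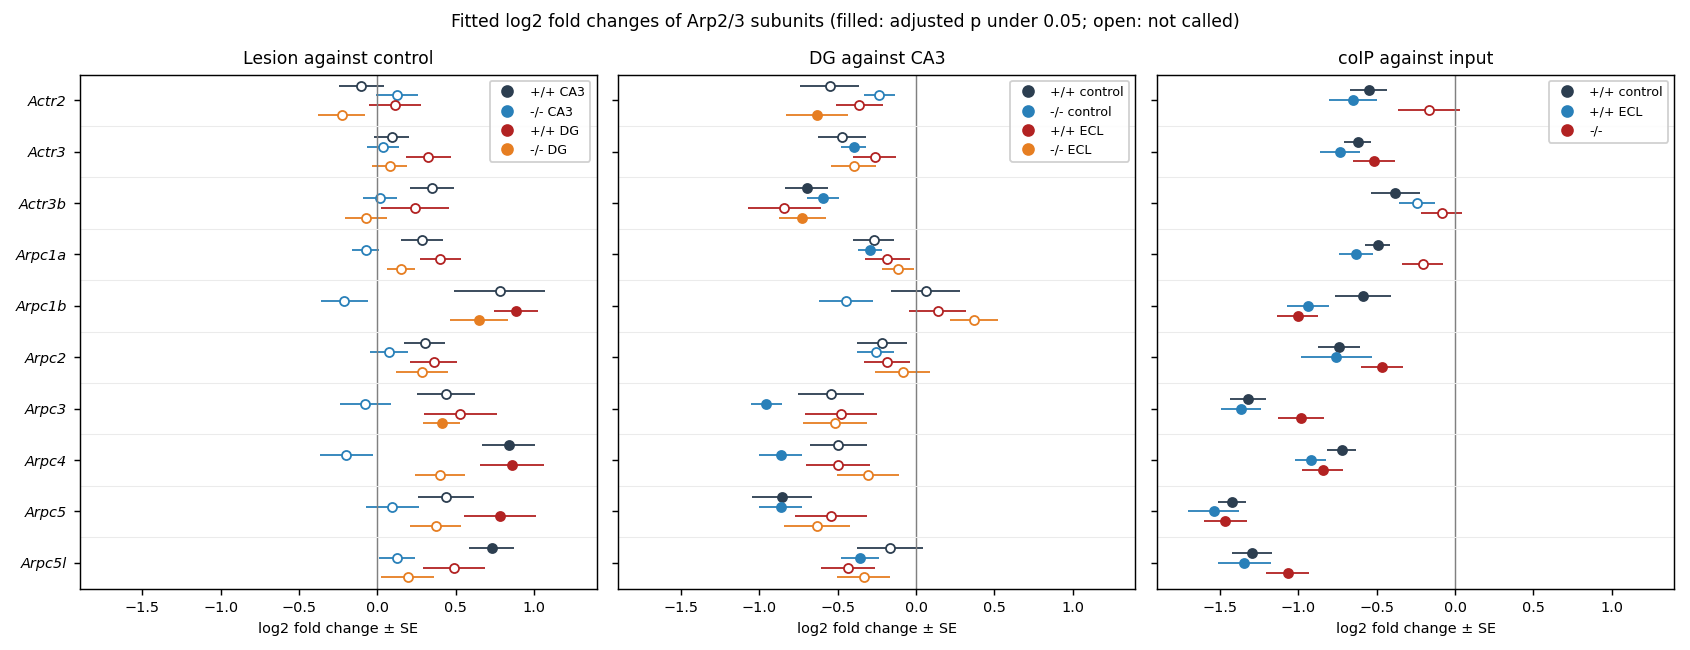
Fitted log2 fold changes ± SE of the 10 subunits for lesion against control, DG against CA3 and coIP against input, with filled points for adjusted p under 0.05 by edgeR and open points for the rest; +/+ and -/- give the Synpo label. The lesion points of Actr2 lie between -0.23 and 0.13, the DG against CA3 points lie left of 0 except for Arpc1b, and all coIP points lie left of 0, farthest for Arpc5 at -1.54 in +/+ ECL.

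The second question was how the regions differed. DG was compared with CA3 at equal label and lesion, and 9 or 10 of 10 subunits had a negative value in each of the 4 comparisons. In controls labelled Synpo-/-, with 7 DG and 6 CA3 libraries, 7 of 10 were called lower in DG, against 12.5% of the 21408 genes tested. The median log2 difference over subunits was -0.42, against 0.05 over all genes. These comparisons share their control and lesioned libraries with the lesion comparisons above.

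Arpc3 showed the largest difference there, between 20.9 and 36.7 CPM in DG with a median of 25.0, and between 48.2 and 62.9 CPM in CA3 with a median of 54.1. The regions did not overlap, and the log2 difference was -0.96 (SE 0.10, edgeR adjusted p = 6.36e-07). Arpc5 ranged from 205 to 383 CPM in DG and from 447 to 727 CPM in CA3 (medians 331 and 629.7), also without overlap (log2 -0.86, SE 0.14, edgeR adjusted p = 0.000104). Arpc4 lay between 24.1 and 53.0 CPM in DG and between 59.6 and 90.2 CPM in CA3 (medians 33.6 and 66.6; log2 -0.86, SE 0.14, edgeR adjusted p = 0.000106). Actr3b lay between 45.2 and 70.0 CPM against 77.9 and 112 CPM (medians 60.4 and 92.0; log2 -0.60, SE 0.10, edgeR adjusted p = 0.000184). For each of these 4 genes every DG library was below every CA3 library. The same held for Actr3 and Arpc1a, which made 6 of 10 subunits. The share of all genes without overlap was not counted.

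Actr3 (-0.40, edgeR adjusted p = 0.001), Arpc5l (-0.36, edgeR adjusted p = 0.0353) and Arpc1a (-0.29, edgeR adjusted p = 0.00642) were the other 3 called. Arpc1b (-0.45), Arpc2 (-0.26) and Actr2 (-0.23) did not pass, and without DG control replicate 2, the library with the high Arpc1b level, Arpc1b and Arpc2 were called too. Without CA3 control replicate 6 Arpc1b was called as well. The Arpc5l call ended without any 1 of 5 libraries (CA3 replicates 1, 2 and 5, DG replicates 4 and 7).

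In Synpo+/+ controls, with 4 DG and 2 CA3 libraries, 2 of 10 were called lower in DG, against 2.75% of 25656 genes. Between these small groups 6 of 10 subunits did not overlap, among them Arpc1a, which was not called (log2 -0.27, edgeR adjusted p = 0.292). The share of all genes without overlap was not counted. Arpc5 was at 273, 183, 329 and 267 CPM in DG and at 408 and 555 CPM in CA3 (log2 -0.86, SE 0.19, edgeR adjusted p = 0.0175). Actr3b was at 57.2, 47.7, 49.1 and 43.6 CPM against 80.8 and 81.1 CPM (log2 -0.70, SE 0.14, edgeR adjusted p = 0.00681). Neither gene overlapped between the regions, and both calls ended without CA3 replicate 2, and that of Actr3b also without CA3 replicate 1.

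After ECL the Synpo+/+ comparison of 7 DG and 3 CA3 libraries called 0 of 10 subunits by edgeR, with 5 at an unadjusted p under 0.05. By edgeR 2.05% of 24029 genes were called in either direction. DESeq2 called 1 subunit and 1518 of the 24029 genes. The 2.05% belongs to the edgeR fit with all libraries, and no share of all genes is given for the fit without DG replicate 5. Leaving out DG replicate 5, whose markers were those of CA3, 7 of 10 were called lower in DG. They were Actr3b (log2 -1.11), Arpc5 (-0.77), Arpc3 (-0.75), Arpc4 (-0.70), Arpc5l (-0.59), Actr2 (-0.49) and Actr3 (-0.38). Actr3b was at 43.4 to 59.1 CPM in the other 6 DG libraries, at 117 CPM in replicate 5 and at 98.2, 102 and 133 CPM in CA3, so that replicate 5 fell among the CA3 values.

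After ECL in tissue labelled Synpo-/-, 2 of 10 were lower in DG, against 6.24% of 22767 genes. Actr3b was at 45.7, 47.7, 66.6 and 67.5 CPM in 4 DG libraries and between 70.6 and 112 CPM, with a median of 95.3, in 6 CA3 libraries (log2 -0.73, SE 0.15, edgeR adjusted p = 0.00463). Actr2 was at 581, 975, 909 and 1019 CPM against 847 to 1711 CPM with a median of 1385 (log2 -0.63, SE 0.20, edgeR adjusted p = 0.0453), with overlap. The Actr2 call ended without any 1 library other than CA3 replicates 2 and 6. CA3 replicate 6 held the lowest level of its group for all 10 subunits, with Arpc3 at 24.8 CPM against 50.5 to 71.4 CPM in the other 5. It also had the lowest sums of its group for the neuronal markers (4092 against 6661 to 7627 CPM), the microglia markers (1163 against 1771 to 2059 CPM), the astrocyte markers (4851 against 5812 to 7366 CPM), the oligodendrocyte markers (1198 against 1227 to 1659 CPM) and the CA3 pyramidal cell markers (399 against 516 to 695.1 CPM). Without it 6 of 10 subunits were called lower in DG, adding Actr3, Arpc3, Arpc4 and Arpc5. The 6.24% belongs to the fit with CA3 replicate 6, and no share of all genes is given for the fit without it.

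Among pathway genes, the WAVE complex showed the same direction in controls. In those labelled Synpo-/-, 5 of 7 tested WAVE genes were lower in DG and 0 higher, including Cyfip2 (-0.58), Cyfip1 (-0.59), Nckap1 (-0.55) and Abi1 (-0.50), with a median of -0.50. For these controls 12.5% of all genes tested were called lower in DG. In Synpo+/+ controls Nckap1 (-0.63), Cyfip1 (-0.62) and Cyfip2 (-0.50) were called lower, against 2.75% of all genes tested. Of other lists in controls labelled Synpo-/-, 3 of 12 nucleation-promoting factors (Cttn -0.59, Wasf1 -0.56 and Wipf3 -0.47), 5 of 10 inhibitors, 3 of 7 capping genes and 1 of 5 WASH genes were lower, and 1 capping gene (Cd2ap, 0.45) was higher. The unbranched nucleators split, with Cobl (2.35), Fhod3 (1.14) and Diaph2 (0.50) higher in DG and 2 of 16 lower, where 13.1% of all genes tested were called higher.

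Cell type markers differed between the regions too. The sum of 9 granule cell markers was 357 to 506 CPM in DG and 73.3 to 161 CPM in CA3 of controls labelled Synpo-/-, with 9 of 9 called higher in DG. The 8 oligodendrocyte markers summed to 509 to 1499 CPM in DG and 1790 to 2875 CPM in CA3, with 8 of 8 called lower in DG. The 6 neuronal markers summed to 3253 to 5009 against 6542 to 8283 CPM, with 3 of 6 called lower. Astrocyte markers summed to 4955 to 5850 against 6160 to 7171 CPM and CA3 pyramidal cell markers to 137 to 305 against 518 to 697.5 CPM. Endothelial and pericyte markers had higher sums in DG, 133 to 239 against 42.1 to 84.9 CPM. Microglia sums overlapped, at 997 to 2071 against 1213 to 2609 CPM. Over all genes tested in these controls, 13.1% were called higher and 12.5% lower in DG. No marker of these lists was at 0 in any regional library. The part of these cell types in the regional differences was not tested.

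Some subunits exist as paralogs that can take the same place in the complex, and their balance was described as the share of the second paralog in the pair, from CPM per kb. The merged exon lengths were 5.115 kb for Arpc1b and 2.567 kb for Arpc1a, and 4.498 kb for Arpc5l and 2.276 kb for Arpc5. For Actr3b and Actr3 they were 2.425 and 4.631 kb. The size of each share depends on these annotated lengths. The shares were chosen after their values had been seen, and 33 comparisons were made by two-sided exact permutation tests, with Benjamini-Hochberg adjustment over the 33. In controls labelled Synpo-/-, Arpc5l made up 21.9% ± 1.31 (SD, n = 7) of Arpc5 plus Arpc5l in DG and 16.6% ± 1.58 (n = 6) in CA3. The lowest DG library, at 20.6%, was above the highest CA3 library, at 19.3% (exact permutation p = 0.000583, the smallest this design allows, adjusted p = 0.0192). This was the 1 of the 33 with an adjusted p under 0.05, and 10 were under 0.05 unadjusted. In Synpo+/+ controls the shares were 22.5% ± 3.03 (n = 4) in DG and 15.3% ± 0.451 (n = 2) in CA3, without overlap (exact permutation p = 0.0667, the smallest possible, adjusted p = 0.200).

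Arpc1b made up 9.19% ± 0.986 (n = 7) of Arpc1a plus Arpc1b in Synpo+/+ DG after ECL and 6.76% ± 0.348 (n = 4) in controls, with no overlap (exact permutation p = 0.00303, the smallest possible, adjusted p = 0.050). Without replicate 5 the lesioned share was 9.28% ± 1.05 (n = 6; exact permutation p = 0.00476). The Actr3b share of Actr3 plus Actr3b was 30.0% ± 2.29 (n = 4) in DG and 35.1% ± 1.64 (n = 6) in CA3 after ECL in tissue labelled Synpo-/- (exact permutation p = 0.00476, the smallest possible, adjusted p = 0.0524). In Synpo+/+ tissue after ECL it was 28.5% ± 3.85 (n = 7) in DG and 37.9% ± 2.44 (n = 3) in CA3 (exact permutation p = 0.0167, adjusted p = 0.0786). Without replicate 5 the DG share was 27.2% ± 1.82 (n = 6; exact permutation p = 0.0119, the smallest possible).

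**Figure D3:**
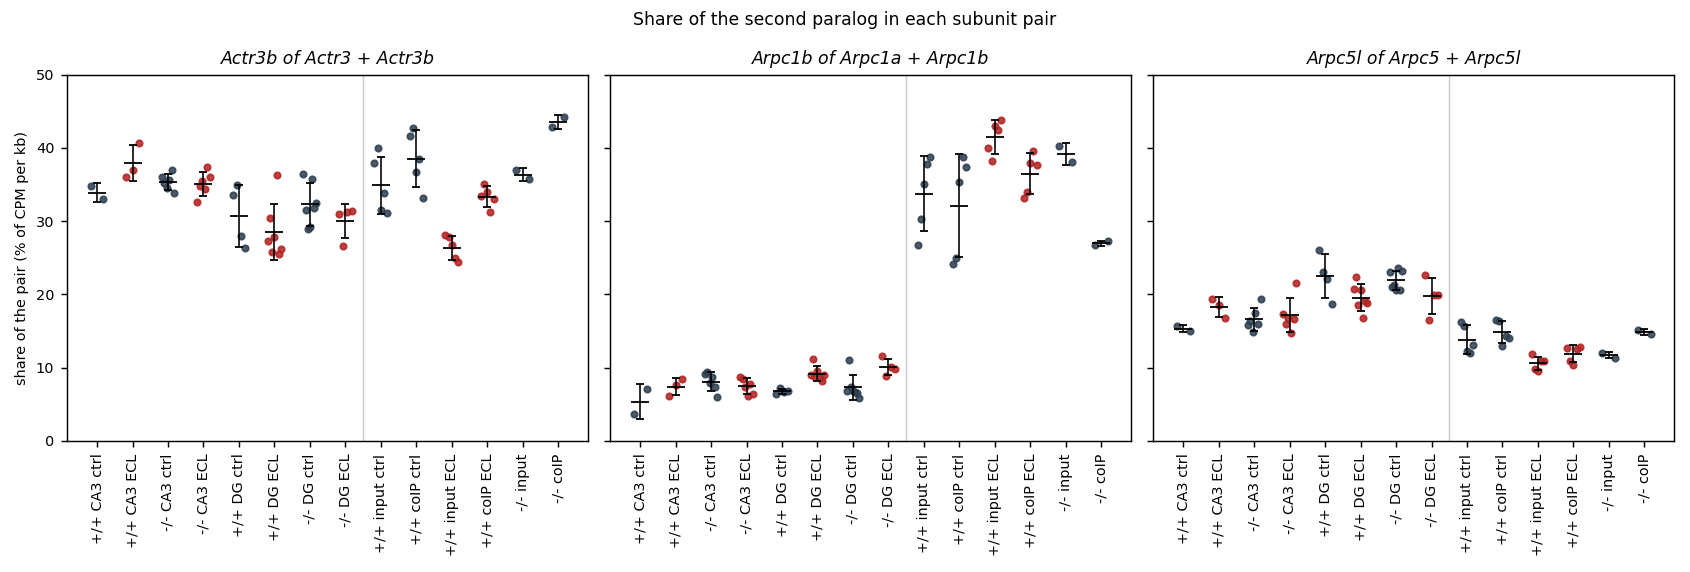
Share of Actr3b, Arpc1b and Arpc5l in their paralog pairs, in percent of the pair's summed CPM per kb, in each library (points; red, ECL; dark, all others) with mean ± SD, for the 8 regional groups left of the grey line and the 6 coIP and input groups right of it. The Arpc1b share lies between 3.71% and 11.6% in regional libraries and between 24.2% and 43.8% in coIP and input libraries.

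The third question was which RNAs were held by the synaptopodin beads. In control Synpo+/+ cultures, all 10 subunits were lower in coIP than in input, against 25.5% of the 18222 genes tested that were called lower. The median log2 difference was -0.67 over subunits and 0.04 over all genes. In lesioned Synpo+/+ cultures 9 of 10 were lower, against 27.8% of 18229 genes, with a median of -0.84. In cultures labelled Synpo-/-, taken through the same procedure, 7 of 10 were lower, against 16.4% of 20892 genes, with a median of -0.68. With the trend of gene length removed, 8, 8 and 6 subunits were lower in control, lesioned and labelled Synpo-/- cultures. The calls lost besides that of Actr3b in control cultures were Arpc1a in control cultures (-0.17, edgeR adjusted p = 0.0771), Arpc2 in lesioned cultures (-0.23, edgeR adjusted p = 0.331) and Arpc2 in those labelled Synpo-/- (-0.18, edgeR adjusted p = 0.306).

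Arpc5 was lowest against its input in the fits without a length correction. With the length trend removed it was at -1.03 in control cultures, where Arpc5l (-1.29) and Arpc3 (-1.04) were lower, and at -1.07 in lesioned cultures, where Arpc5l (-1.29) was lower. In control Synpo+/+ cultures it was at 1184, 957, 1232, 1112 and 1009 CPM in inputs and at 374, 450.1, 393, 399.5 and 407 CPM in coIPs of replicates 1 to 5. Every coIP was below every input, and the log2 difference was -1.42 (SE 0.09, edgeR adjusted p = 2.07e-07), a 2.68-fold lower level. In lesioned cultures inputs were at 886, 1087, 1187, 1255 and 1292 CPM and coIPs at 412, 294, 461, 282 and 496 CPM (log2 -1.54, SE 0.16). In cultures labelled Synpo-/- the inputs were at 1193 and 1274 CPM and the coIPs at 484 and 428 CPM (log2 -1.47, SE 0.14, edgeR adjusted p = 0.000183).

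The small subunits Arpc3 and Arpc5l followed. Arpc3 was at 51.6, 51.0, 54.2, 57.5 and 61.6 CPM in control inputs and at 24.4, 18.9, 17.2, 23.5 and 24.9 CPM in coIPs (log2 -1.32, SE 0.11, edgeR adjusted p = 6.33e-07). Arpc5l was at 451, 351, 342, 298 and 299 CPM in inputs and at 146, 175, 115, 133 and 132 CPM in coIPs (log2 -1.29, SE 0.13, edgeR adjusted p = 1.73e-06). Neither gene overlapped between the fractions, which held for 8 of 10 subunits in these control cultures. The share of all genes without overlap was not counted. After ECL their log2 differences were -1.37 and -1.35, and in cultures labelled Synpo-/- they were -0.98 and -1.07, all called by edgeR.

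Arpc2, Arpc4, Actr3, Arpc1b, Actr2 and Arpc1a differed less, by -0.74, -0.72, -0.62, -0.59, -0.55 and -0.49 on the log2 scale in control Synpo+/+ cultures. After ECL their values were -0.76, -0.92, -0.73, -0.94, -0.65 and -0.63. In cultures labelled Synpo-/- Arpc1b (-1.01), Arpc4 (-0.85), Actr3 (-0.52) and Arpc2 (-0.46) were called, and Actr2 (-0.17) and Arpc1a (-0.21) were not. The Arpc2 call there ended without any 1 of 3 libraries (coIP replicate 2, input replicates 1 and 2), and the Actr3 call without input replicate 2. Inputs 1 and 2 of the controls had less Arpc1b (230 and 244 CPM) than inputs 3 to 5 (333, 344 and 350 CPM), and their coIPs likewise (142 and 137 against 207, 247 and 253 CPM), so that its fractions overlapped over all replicates but not within a lysate.

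Actr3b was closest to its input. It was at 99.6, 98.5, 79.9, 75.1 and 66.7 CPM in control inputs and at 70.1, 86.6, 54.2, 59.0 and 48.2 CPM in coIPs (log2 -0.38, SE 0.15, edgeR adjusted p = 0.0478), and the groups overlapped. The call ended without any 1 of 6 libraries, coIP replicates 3 to 5 and input replicates 1 to 3. After ECL its log2 difference was -0.24 (edgeR adjusted p = 0.0847) and in cultures labelled Synpo-/- -0.08 (edgeR adjusted p = 0.657). With the trend of gene length removed, the Actr3b value in control cultures was -0.03 (edgeR adjusted p = 0.894) and in lesioned cultures it turned to 0.19 (edgeR adjusted p = 0.0824). With the GC trend removed as well, it was called higher in lesioned coIPs (0.24, edgeR adjusted p = 0.0231), so its direction depended on this correction.

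Each coIP came from the lysate of an input, and pairing by replicate number gives a ratio per lysate. The sample titles do not state that equal numbers mark 1 lysate. All 5 control lysates had coIP below input for all 10 subunits, with median ratios from 0.359 for Arpc5 to 0.722 for Actr3b. In lesioned lysates 5 of 5 were below 1 for 9 subunits and 4 of 5 for Actr3b, whose ratios ran from 0.653 to 1.04. In the 2 lysates labelled Synpo-/-, 8 subunits were below 1 in both, and Actr2 (0.659 and 1.32) and Actr3b (0.924 and 1.01) in 1 of 2. The labels number these inputs in 2 ways that cross, and the preparation number was used here, so which input belongs to which coIP is uncertain for these lysates. With the lysate as a block, Actr3b was called lower in lesioned cultures as well, which made 10 of 10.

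**Figure D4:**
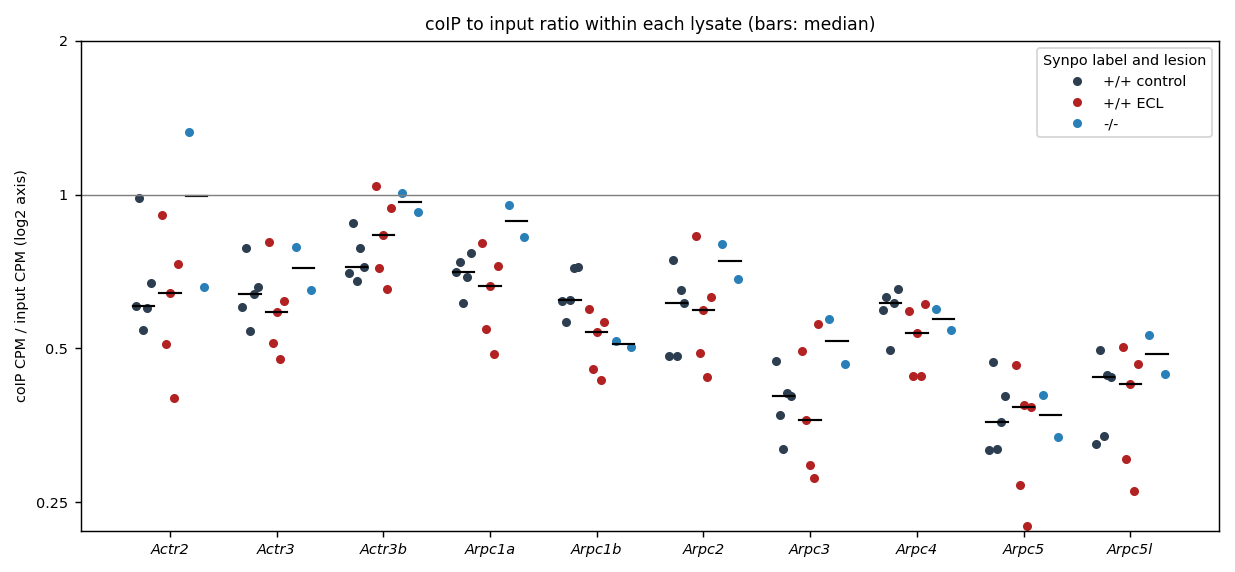
Ratio of coIP to input CPM within each lysate for the 10 subunits, on a log2 axis, with points for lysates and black bars for medians of 5 control Synpo+/+ (dark), 5 lesioned Synpo+/+ (red) and 2 labelled Synpo-/- (blue) lysates. The points lie below 1 except for 1 of Actr2 (1.32) and 1 of Actr3b (1.01) in lysates labelled Synpo-/- and 1 of Actr3b (1.04) after ECL.

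Whether the coIP to input difference itself differed between the labels was tested as an interaction with control Synpo+/+ cultures, and no subunit passed (0 of 10 and 0 of 20621 genes by edgeR, with 1 subunit and 1511 genes at an unadjusted p under 0.05, and 0 subunits by DESeq2). The differences ran from -0.37 for Arpc1b to 0.44 for Actr2, and the smallest adjusted p was 0.623 for Arpc1a (0.34, SE 0.14, edgeR). The interaction with lesion called none either (0 of 10 and 0 of 19581 genes by edgeR, with 0 subunits and 434 genes at an unadjusted p under 0.05, and 0 subunits by DESeq2), and the values ran from -0.31 for Arpc1b to 0.18 for Actr3b. Only 2 lysates carry the label Synpo-/-, and a p that misses the threshold does not show that the fractions acted alike. Their libraries were also sequenced deeper than all Synpo+/+ coIPs and inputs, so label and depth cannot be told apart.

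Lesion against control within a fraction was tested for Synpo+/+ cultures. In inputs 1 of 10 fell, Actr3b, against 3.16% of 17951 genes called lower. It was at 99.6, 98.5, 79.9, 75.1 and 66.7 CPM in control inputs and at 50.7, 54.4, 54.1, 53.4 and 57.7 CPM in lesioned ones, without overlap (log2 -0.64, SE 0.11, edgeR adjusted p = 0.00418). The other 9 ran from -0.53 (Arpc2) to 0.41 (Arpc1b). DESeq2 called 4 subunits in inputs, 1 higher and 3 lower, and 1687 of 17951 genes in either direction. Microglia markers (6 of 14 called higher, against 439 of 17951 genes) summed to 1539 to 2365 CPM in control and 1980 to 3416 CPM in lesioned inputs. Neuronal markers (1 of 6 called lower) summed to 7487 to 8967 against 6448 to 7912 CPM. Astrocyte markers summed to 19020 to 27200 against 23970 to 36120 CPM. The part of these cell types was not tested. Without lesioned input replicate 5, Arpc2 and Arpc5l were called too, which made 3 of 10. In coIPs 0 of 10 were called, with 3 at an unadjusted p under 0.05 and 0 by DESeq2, against 0.314% of 18449 genes called in either direction, and Actr3b had a value of -0.48 (edgeR adjusted p = 0.249).

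Of the pathway lists, capping genes moved in the same direction as the subunits in the coIP. In control Synpo+/+ cultures 6 of 7 capping genes were lower in coIP, among them Capza2 (-0.98), Capza1 (-0.98), Capg (-0.91) and Capzb (-0.85), and 1 higher. The share of all genes called lower there was 25.5%. Of 16 other nucleators 12 were higher, such as Inf2 (1.01), Fmn2 (0.85), Fmnl2 (0.70) and Daam1 (0.69), and 1 was lower, where 29.6% of all genes tested were called higher. WAVE genes split, with Abi1 (-0.79), Brk1 (-0.75) and Abi2 (-0.45) lower and Nckap1 (0.64) higher, 4 and 3 of 8 in all. Nucleation-promoting factors were 2 lower and 2 higher of 12, WASH genes 1 and 2 of 5, and inhibitors 3 and 1 of 10. In cultures labelled Synpo-/- the same counts were 4 lower of 7 capping genes, and 6 higher and 1 lower of 16 other nucleators. There 15% of all genes tested were called higher and 16.4% lower. Microglia markers summed to 1539 to 2365 CPM in control inputs and 1116 to 1772 CPM in coIPs, with 5 of 14 lower and 1 higher, and none of the 14 was at 0. The 6 neuronal markers summed to 7487 to 8967 CPM in inputs and 4538 to 5863 CPM in coIPs, with Snap25 (-1.08) lower and Map2 (0.51) and Slc17a7 (0.69) higher. Their part in the subunit differences was not tested.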

How the data were processed

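RNA was sequenced from 63 libraries, 39 regional and 24 coIP or input. After trimming with cutadapt (3.5) and mapping to mm10 with STAR (2.7.8a), the authors deposited whole-number counts per GENCODE gene from unstranded featureCounts (2.0.1), versions per the submitters' processing notes. All columns were used (0 left out). Counts were tested, without rounding or rescaling, with edgeR 4.0.16 (R 4.3.3, limma 3.58.1): TMM scaling, filterByExpr, the quasi-likelihood test and Benjamini-Hochberg adjustment over all genes tested, with calls at an adjusted p under 0.05. Each of 23 comparisons was fitted on its own groups. CPM are TMM-scaled, separately for each experiment. Levels per kb used the merged length of all annotated exons of each gene.

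Alternatives were DESeq2 1.42.0, RLE scaling, no filter on low counts, removal of length or length and GC trends (lowess span 0.3, genes with a mean count of at least 50), a replicate block and leaving out each library. The 10 subunits, the pathway lists and the markers were chosen with earlier results of these data known. Subunits called in a main fit were named, and the others are given by name, by range or as a count. Of each list up to 4 called genes with the smallest p were named. Another list of pathway genes is not reported here. Same-numbered coIP and input were taken to come from 1 lysate, which the sample titles do not state. The labels of the Synpo-/- inputs carry crossed numbers, of which the preparation number was used. In Synpo+/+ controls and lesioned cultures the deviations of same-numbered coIP and input correlated in 5 of 5 pairs each (r 0.224 to 0.528 and 0.129 to 0.481). In each of these 2 comparisons 3 of 5 pairs correlated best with their own number. Regional replicate numbers were not used as pairs in the main fits, and whether equal numbers mark 1 culture is uncertain. For DG against CA3 in controls labelled Synpo-/-, same-numbered libraries had r 0.0391 to 0.553, over 0.1 in 3 of 6 pairs. In Synpo+/+ controls the 2 such pairs had r -0.244 to -0.198. No 2 libraries were identical (0 pairs), and 130 within-group pairs differed by more than sampling noise (chi-square per degree of freedom 7.54 to 101.7). Tested on simulated data over the 23 comparisons (17659 to 26458 genes), edgeR called 188 to 200 of 200 genes changed 4-fold and at most 23 others. That change is larger than any subunit change in the main fits (at most 2.91-fold). The simulation therefore does not show how often changes of the subunits' size are missed.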

Additional observations from a re-analysis of the deposited data

Results flagged for a closer look

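Of 100 sets of values (10 genes in 10 groups of 4 to 7 libraries), 9 held a subunit level far from the others by Dixon's criterion, where chance gives about 5. In Synpo+/+ DG after ECL, replicate 5 stood apart for 6 genes, with Actr2 at 1400 CPM (others 744 to 986), Actr3 at 392 CPM (234 to 292), Actr3b at 117 CPM (43.4 to 59.1), Arpc3 at 77.9 CPM (31.1 to 36.2), Arpc4 at 92.0 CPM (41.4 to 60.2) and Arpc5 at 854 CPM (336 to 484). This is the library whose regional markers went against its DG label. Arpc1b was at 43.2 CPM in replicate 2 of the DG controls labelled Synpo-/- (others 17.5 to 25.5). Arpc4 was at 41.1 CPM in replicate 2 of DG labelled Synpo-/- after ECL (others 50.4 to 51.2). Actr3 was at 222 CPM in replicate 2 of the control Synpo+/+ coIPs (others 179 to 188).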

How the results depend on the processing

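Values here are numbers of subunits called of 10. Shares of all genes called are given for the main fits and not for fits with 1 library left out. After ECL in Synpo+/+ CA3, RLE scaling and removal of the length trend gave 0 and no filter 5, with 2716 of 47901 genes called. In DG labelled Synpo-/-, RLE scaling, no filter, the length trend and the replicate block each gave 1. For DG against CA3, the block gave 1 in Synpo+/+ controls. In Synpo+/+ ECL tissue DESeq2, no filter and the length trend each gave 1 and the block 7. The block fit called 4999 of 24029 genes there, against 492 in the main fit. In ECL tissue labelled Synpo-/-, DESeq2 and the length trend gave 4 and the block 6, with 4292 of 22767 genes called by the block, against 3098. Between CA3 controls of the genotype labels, DESeq2 and no filter gave 2 and the block 5. There the block called 2232 of 24203 genes and DESeq2 719, against 1 in the main fit. For lesion in inputs, DESeq2 and no filter gave 4 and the block 2, and for the genotype by lesion term in CA3 no filter and the block gave 1. The cause was not tested.

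For the 45 subunit values called, 645 alternative values kept the direction and the call, 79 lost the call (60 of them with 1 library left out) and 2 turned sign: Actr3b in control Synpo+/+ coIP was 0.0206 with length and GC trends removed and 0.00982 with the replicate block as well. Of the 185 values not called, 63 turned sign under at least 1 alternative. With 1 library left out, the number called ran from 0 to 3 (lesion, Synpo+/+ CA3), 1 to 4 (Synpo+/+ DG), 0 to 0 (CA3 labelled Synpo-/-), 0 to 2 (DG labelled Synpo-/-), 0 to 2 (regions, Synpo+/+ controls), 0 to 7 (Synpo+/+ ECL), 6 to 9 (controls labelled Synpo-/-), 1 to 6 (ECL labelled Synpo-/-), 9 to 10 (coIP, control and lesioned Synpo+/+), 5 to 7 (coIP labelled Synpo-/-), 1 to 3 (lesion in inputs), 0 to 1 (region by lesion, labelled Synpo-/-) and 0 to 0 in all others. Removing the length trend moved the median of all genes to -0.14 in both Synpo+/+ lesion comparisons. Removing the length trend gave 2 for lesion in Synpo+/+ DG, and for coIP against input 8, 8 and 6 in control, lesioned and labelled Synpo-/- cultures. With the lysate as a block, coIP against input gave 10 in control and in lesioned Synpo+/+ cultures and 7 in those labelled Synpo-/-, and crossing the last 2 lysates, tried after seeing the data, also gave 7. Whether regional replicates of equal number share a culture is uncertain. Small groups (2 Synpo+/+ CA3 controls, 2 lysates labelled Synpo-/-) limit these fits.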
